A study of Mus musculus with 6 samples.

Results

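The MHC class II genes described here are 8 genes of class II antigen presentation, namely H2-Aa, H2-Ab1, H2-Eb1, H2-DMa, H2-DMb1, H2-DMb2, Cd74 and Ciita. All 8 were among the 24736 gene symbols of the deposited expression table, and all 8 passed the filter on low values that left 12268 genes for testing. The genes were chosen by name as class II genes, with earlier results of these data known. RNA sequencing was performed on intestinal crypts of 3 WT and 3 Mtg16-/- mice, all males of 12 weeks, described as biological triplicates and taken here as 1 library per animal. The crypts came from the whole length of the gut, where the epithelium was released with 2 mM EDTA for 30 minutes, and neither group received a treatment. The labels call the knockout CRISPR-induced, whereas the methods describe Mtg16-/- mice received from another laboratory, and the strain is not given in the sources used here. The knockout is not described as restricted to the epithelium. Values are TPM (length-corrected transcript abundance on a common scale for all libraries), so levels can be compared between genes and the read depth behind each value is unknown.

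Mtg16, listed under the symbol Cbfa2t3, had a TPM of 3.67, 6.69 and 4.52 in WT and of 4.62, 6.43 and 3.23 in Mtg16-/-, so its gene-level value did not separate the genotypes. A gene-level TPM cannot show whether an exon is missing, and the genotypes are taken from the labels. Epithelial identity was clear in every library, with Epcam, the epithelial adhesion molecule, between 1087 and 1375 TPM. Leukocytes were also present, with Ptprc, which encodes the leukocyte surface protein CD45, between 4.91 and 17.1 TPM. In bulk libraries of this kind, fewer cells of a type and less RNA per cell cannot be told apart.

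MHC class II molecules present peptides from the endosomal pathway to CD4+ T cells. An alpha and a beta chain assemble in the endoplasmic reticulum on the invariant chain, and in the endosome the DM heterodimer exchanges the remaining fragment of that chain for peptide. Dendritic cells, macrophages and B cells make these genes constitutively, whereas the intestinal epithelium, including crypt cells, makes them to a degree that depends on the microbiota and on interferon gamma. In both settings the transactivator CIITA is the switch: it does not bind DNA itself but docks on the RFX, CREB and NF-Y factors that sit on the X, X2 and Y boxes of class II promoters.

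In the mouse genome (GRCm38), 6 of the 8 genes lie within 197 kb of chromosome 17. In order of position they are H2-DMa (34119693 to 34139101), H2-DMb2 (34143229 to 34151553), H2-DMb1 (34153191 to 34160229), H2-Ab1 (34263227 to 34269418), H2-Aa (34282744 to 34287823) and H2-Eb1 (34305867 to 34316674). The promoters of 5 members are in the RefSeq table of 300-base windows used here (250 bases before and 50 after the annotated start, GRCm38.p6), and those of H2-Ab1, Cd74 and Ciita were not analysed here. The promoter stretches of 4 members, and of the related genes H2-Oa and H2-Ob, are shown because they carry the X and Y box arrangement that CIITA acts through, and because H2-DMb1 and H2-DMb2 behaved differently in the libraries. Capitals mark AAC, at the core of the X box, and GATTGG, the Y box, an inverted CCAAT motif. Each is written 5′ to 3′ on the strand of its gene.
H2-Aa, chr17:34287857-34287912, minus strand: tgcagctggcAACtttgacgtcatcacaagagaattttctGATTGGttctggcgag
H2-Eb1, chr17:34305768-34305822, plus strand: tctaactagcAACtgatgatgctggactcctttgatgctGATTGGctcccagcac
H2-DMb1, chr17:34153089-34153144, plus strand: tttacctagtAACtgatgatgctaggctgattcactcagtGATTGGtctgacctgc
H2-DMb2, chr17:34145118-34145173, plus strand: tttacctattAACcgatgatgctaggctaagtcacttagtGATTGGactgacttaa
H2-Oa, chr17:34092295-34092350, plus strand: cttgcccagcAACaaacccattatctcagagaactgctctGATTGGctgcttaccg
H2-Ob, chr17:34238810-34238862, plus strand: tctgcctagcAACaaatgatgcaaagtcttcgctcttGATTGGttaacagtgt

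In these 6 stretches, between 24 and 27 bases separated AAC from GATTGG, and GATTGG ended between 38 and 85 bases before the annotated start. A search of either strand for AAC, 24 to 28 further bases and GATTGG found this arrangement in 364 of 32851 promoter windows (1.11%), whereas GATTGG alone, or its complement, was in 16.1%. The spacing was set after these promoters had been read, so the match is a description. Neither of the 2 listed H2-DMa windows held the arrangement. The stretches of H2-DMb1 and H2-DMb2, neighbouring genes that encode alternative DM beta chains and lie 1637 bases apart, were identical at 47 of 56 bases (83.9%).

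Class II transcripts were abundant in the crypt libraries, and their levels spanned a wide range. Cd74, which encodes the invariant chain, was the most abundant member, with a mean of 1067 TPM over the 6 libraries, and 0.614% of all listed genes had a higher mean. Cd74 lies outside the class II region, on chromosome 18 from 60803849 to 60812652, as does Ciita, on chromosome 16 from 10480014 to 10531064. The classical chain genes followed, with means of 303 TPM for H2-Ab1, 298 TPM for H2-Aa and 137 TPM for H2-Eb1. The mean was 46.2 TPM for H2-DMb1, 36.4 TPM for H2-DMa, 12.1 TPM for Ciita and 4.71 TPM for H2-DMb2. H2-Aa and H2-Ab1 did not differ beyond their spread, with ratios from 0.864 to 1.08 and either gene the higher of the pair in some libraries. H2-DMa was below H2-DMb1 in all libraries but Mtg16-/- replicate 3.

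H2-Aa encodes the alpha chain of the I-A molecule. Its TPM was 297, 203 and 312 in WT and 398, 463 and 113 in Mtg16-/-. Replicates 1 and 2 of Mtg16-/- were above every WT library and replicate 3 was below every WT library, so the groups overlapped. H2-Ab1, its beta chain partner, had 339, 213 and 318 TPM in WT and 390, 429 and 131 TPM in Mtg16-/-. H2-Eb1, the beta chain of the I-E molecule, had 122, 106 and 130 TPM in WT and 180, 223 and 60.2 TPM in Mtg16-/-. Both repeated the pattern of H2-Aa, with the same pair of Mtg16-/- libraries at the top and the same one at the bottom.

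Cd74 had 1012, 764 and 1186 TPM in WT and 1410, 1574 and 457 TPM in Mtg16-/-. Of the DM genes, H2-DMa, the alpha chain, had 29.7, 24.9 and 37.2 TPM in WT and 49.0, 55.2 and 22.1 TPM in Mtg16-/-. The beta chain gene H2-DMb1 had 36.0, 30.3 and 48.9 TPM in WT and 63.1, 78.3 and 20.5 TPM in Mtg16-/-. All 3 had the library order of H2-Aa. Ciita had it as well, with 10.8, 7.20 and 11.9 TPM in WT and 14.9, 23.1 and 4.65 TPM in Mtg16-/-. H2-DMb2 did not. Its TPM was 4.65, 8.31 and 2.22 in WT and 7.72, 3.85 and 1.52 in Mtg16-/-, with the highest value in WT replicate 2 and the lowest in Mtg16-/- replicate 3.

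**Figure D1:**
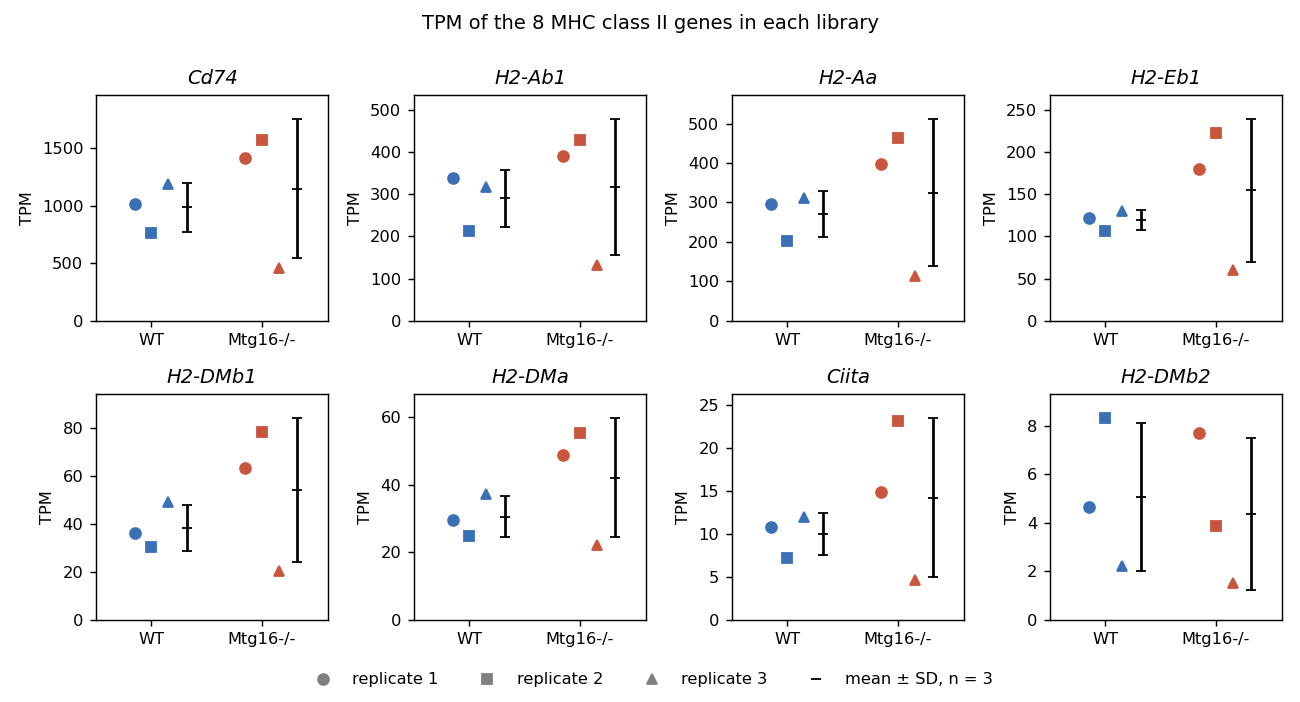
TPM (vertical axes, from 0) of each MHC class II gene in the 3 WT (blue) and 3 Mtg16-/- (red) libraries. Marker shapes give the replicate number, and black bars give the mean ± SD of each group (n = 3). In 7 genes Mtg16-/- replicates 1 and 2 lie above and replicate 3 below all WT points, whereas H2-DMb2 is highest in WT replicate 2.

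Whether class II expression changed with loss of Mtg16 was tested with limma's moderated test on log2(TPM + 1), with Benjamini-Hochberg adjustment over all 12268 genes and calls at an adjusted p under 0.1. None of the 8 members was called, none had an unadjusted p under 0.05, and none had groups without overlap. Among all tested genes 0.0326% were called (0.0163% higher and 0.0163% lower), 14.6% had an unadjusted p under 0.05 and 21.0% had groups without overlap. The difference between group means was smaller than the SD of the Mtg16-/- mice in every member, and larger than the SD of the WT mice in H2-Eb1, H2-DMa, H2-DMb1 and Ciita. Cd74 had a mean of 987 ± 213 TPM (SD, n = 3) in WT and 1147 ± 603 TPM (SD, n = 3) in Mtg16-/-, and H2-Ab1 had 290 ± 67.7 and 317 ± 162 TPM (SD, n = 3 each).

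On the log2(TPM + 1) scale, which understates changes of genes with low TPM, the difference between Mtg16-/- and WT lay between -0.22 for H2-DMb2 and 0.36 for H2-DMa. The median over the 8 members was 0.11, beside -0.03 over all tested genes. H2-DMa had the smallest adjusted p of the members (limma, 0.605) and H2-Ab1 the largest (limma, 0.987). The 95% intervals were wide. For Cd74 the log2 fold change was 0.05, with an interval from -0.98 to 1.08, for H2-Aa it was 0.05, from -1.08 to 1.18, and for Ciita it was 0.26, from -0.85 to 1.37. A doubling of TPM is therefore inside these intervals, and the data do not show that the genotypes were alike. In exact two-sided permutation tests of TPM, the p-value lay between 0.4 for H2-DMa and 0.8 for H2-Ab1, where 3 mice against 3 cannot give less than 0.1.

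The direction depended on single libraries. Without Mtg16-/- replicate 3, the log2 fold changes of the 7 members other than H2-DMb2 lay between 0.52 and 0.88 and their groups no longer overlapped, with Mtg16-/- higher. In the same 5 libraries 14.3% of 12300 genes did so, and for the 7 genes limma returned adjusted p-values from 0.509 to 0.584, with no call among all genes. The lack of overlap followed from the library order given above. The 7 genes also moved together, so they are not 7 separate observations. Without Mtg16-/- replicate 2, the log2 fold change was -0.32 for H2-Aa, -0.27 for Cd74 and -0.19 for Ciita.

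**Figure D2:**
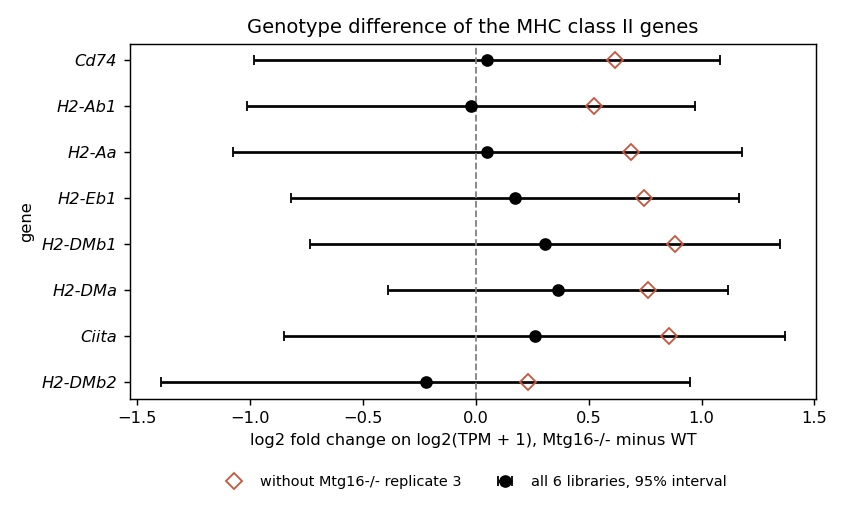
Log2 fold change on the log2(TPM + 1) scale, Mtg16-/- minus WT (horizontal axis), for each MHC class II gene, with 95% intervals from limma over all 6 libraries (black) and the value without Mtg16-/- replicate 3 (open red diamonds). All 8 intervals include 0, and without that library, the lowest in every member, all 8 values are above 0, from 0.23 for H2-DMb2 to 0.88 for H2-DMb1. Leaving out Mtg16-/- replicate 2 instead, not shown, put every member but H2-DMa (0.12) below 0, with -0.32 for H2-Aa.

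The class II genes differed widely among the Mtg16-/- mice. From the lowest to the highest Mtg16-/- library, H2-Aa differed 4.09-fold, Ciita 4.96-fold and H2-Eb1 3.71-fold. In WT the corresponding ranges were 1.54-fold, 1.65-fold and 1.23-fold. The span in Mtg16-/- came largely from replicate 3. Replicates 1 and 2 of Mtg16-/- had 398 and 463 TPM in H2-Aa, 14.9 and 23.1 TPM in Ciita and 180 and 223 TPM in H2-Eb1. Replicate 3 had 113, 4.65 and 60.2 TPM in the same genes. As a description of these libraries, the range of H2-Aa within Mtg16-/- was 2.02 on the log2(TPM + 1) scale, and 0.774% of tested genes had a range at least as large, beside a median of 0.35. For the 8 members this share lay between 0.693% for Ciita and 2.80% for H2-DMa. The range of H2-Aa within WT was 0.62, which 24.4% of genes reached, beside a median of 0.38. H2-DMb2 was widely spread in WT too, with a range of 1.53 that 2.53% of genes reached.

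The members other than H2-DMb2 moved together from mouse to mouse. Pearson's r of log2(TPM + 1) over the 6 libraries lay between 0.883 and 0.997 in the 21 pairs of these 7 genes, with a median of 0.972. The median was 0.983 when group means were removed and 0.961 without Mtg16-/- replicate 3. These values are descriptive, since the pairs share 6 libraries and their scaling to a common total. The proportions between these transcripts varied less than their levels. The ratio of Cd74 to H2-Aa lay between 3.40 and 4.03 in all libraries, with 3.66 ± 0.216 in WT and 3.66 ± 0.332 in Mtg16-/- (SD, n = 3 each). Ciita amounted to between 3.20% and 5.38% of the TPM of H2-Ab1, with the highest share in Mtg16-/- replicate 2.

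H2-DMb2 stood apart from its neighbour. Its r with the other members lay between 0.241 and 0.472, and its TPM relative to H2-DMb1 ranged from 0.0454 to 0.275, a 6.05-fold span. Of the distinct 50-base windows in annotated H2-DMb2 transcripts (GENCODE vM21), 21.2% were also in H2-DMb1, the only pair of members with shared windows. These windows made up 27.2% of those of H2-DMb1. Reads from them could have been divided between both genes in the quantification, so the levels of both are less certain. H2-DMb2 was the lower of the pair, with a mean of 4.71 TPM beside 46.2 TPM. H2-DMb2 ran with B cell genes, and also with ileum genes. The 9 tested B cell markers had a median r of 0.869 with H2-DMb2 and of 0.232 with the mean profile of the 8 members. Cd79a, a chain of the B cell receptor complex, had 8.50, 15.5 and 3.90 TPM in WT and 17.5, 6.27 and 4.63 TPM in Mtg16-/-, with r = 0.953 to H2-DMb2. The ratio of H2-DMb2 to Cd79a spanned 1.87-fold over the 6 libraries and that of H2-Ab1 to Cd79a spanned 5.94-fold. The 5 ileum genes had a median r of 0.768 with H2-DMb2 and of 0.490 with the member profile, with r = 0.938 to H2-DMb2 for Slc10a2, the ileal bile acid transporter, and 0.854 for Fabp6, the ileal bile acid binding protein. The 5 tested plasma cell markers had a median r of 0.700 with H2-DMb2.

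H2-Oa and H2-Ob, which encode the chains of the DM inhibitor H2-O made mainly by B cells and some dendritic cells, had low values. H2-Oa had 1.75, 1.92 and 0.53 TPM in WT and 2.83, 1.27 and 1.26 TPM in Mtg16-/-. H2-Ob had 2.30, 3.06 and 1.19 TPM in WT and 4.83, 1.27 and 1.08 TPM in Mtg16-/-. Both were highest in Mtg16-/- replicate 1, the library with the most Cd79a, and had r of 0.785 and 0.893 with H2-DMb2 but of 0.215 and 0.361 with the member profile. H2-Eb2, a further beta chain gene, stayed between 0.32 and 1.41 TPM, and the alpha chain pseudogene H2-Ea-ps was listed at 0 in all libraries. By the fixed measure of likeness applied to H2-DMb2, an application added after its values were seen, the 10 most similar genes were Ufsp1, Pax5, Chrm1, Zfp467, Fcmr, Slc12a8, Wdfy4, Il4i1, Ly86 and Hrh1, with r between 0.957 and 0.995. They include Pax5, the transcription factor that maintains B cell identity (r = 0.991, TPM between 0.31 and 3.09), beside genes that are not B cell markers, such as the receptor genes Chrm1 and Hrh1.

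**Figure D3:**
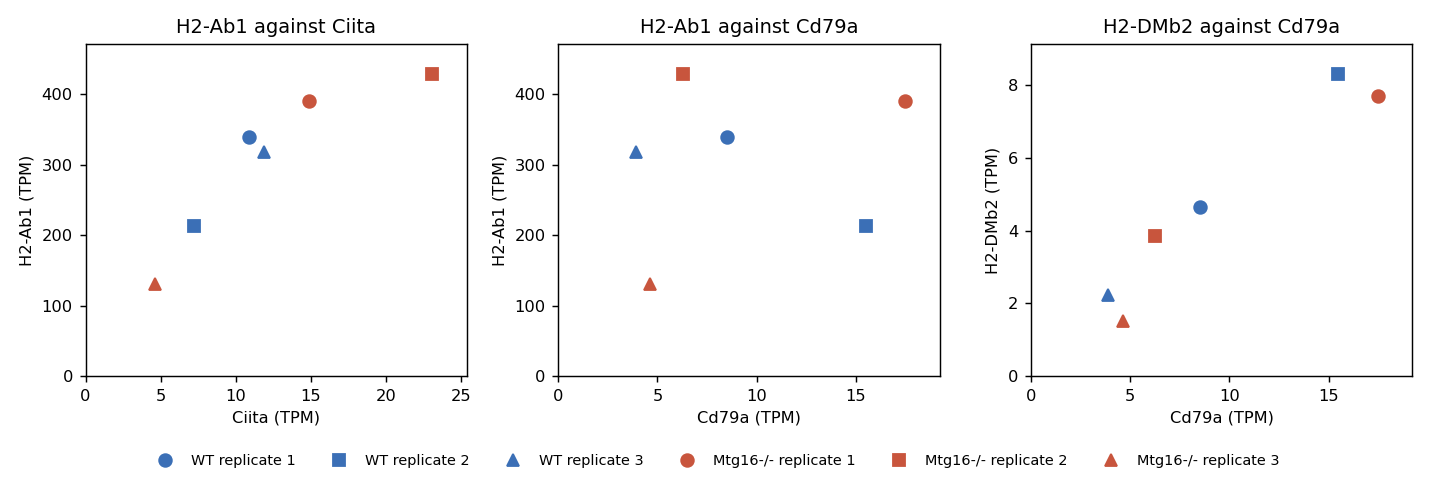
TPM of H2-Ab1 against Ciita (left), H2-Ab1 against the B cell gene Cd79a (middle) and H2-DMb2 against Cd79a (right), 1 point per library, all axes from 0. H2-Ab1 is ordered with Ciita in all but a close pair of WT libraries and shows no such order with Cd79a, whereas H2-DMb2 runs with Cd79a (r = 0.953 on the log2 scale).

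Genes that most resembled the class II profile were sought among the 12260 other tested genes, by Pearson's r over 6 libraries with the mean of the members. The 10 most similar were Cpd, Plekhg1, Appl2, Gbp2, Prkaa2, Ahdc1, Jdp2, Tbc1d30, Brd1 and Traf3ip2, with r between 0.970 and 0.991. In all, 32 genes reached an r of at least 0.95, a description over 6 points that share their scaling. Gbp2, an interferon-induced GTPase, had 2.59, 1.86 and 2.05 TPM in WT and 3.53, 4.43 and 0.47 TPM in Mtg16-/- (r = 0.986). Cpd, which encodes a carboxypeptidase, ranged only from 28.3 to 43.6 TPM.

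The factors that bind class II promoters varied over a narrower range. None of the 7 genes (RFX subunits, NF-Y subunits and Creb1) was called by limma, none had an unadjusted p under 0.05, and their median log2 fold change was 0.16. Their summed TPM lay between 146 and 158 in WT and between 149 and 155 in Mtg16-/-. Rfx5, the largest RFX subunit, had 7.53, 6.58 and 8.50 TPM in WT and 8.71, 9.58 and 7.41 TPM in Mtg16-/-, a far narrower span than that of Ciita. Rfxap lay between 7.75 and 13.5 TPM and Rfxank between 8.65 and 16.9 TPM.

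The endosomal genes of the pathway ranged in mean from 7.16 TPM for Ctsl to 269 TPM for Ifi30. None of the 7 was called, 1 (Lgmn) had an unadjusted p under 0.05, 6 were lower in Mtg16-/- by their log2 fold change, and the median log2 fold change was -0.11. Ctss, the protease that removes the invariant chain, had 145, 86.7 and 104 TPM in WT and 118, 96.4 and 90.8 TPM in Mtg16-/-. Ifi30, a thiol reductase that opens disulfide bonds of antigens, lay between 237 and 313 TPM, and Lgmn, an endosomal protease, between 15.3 and 27.6 TPM. The group of class II turnover and costimulation genes had 2 tested members of 6 in the table, none called and 1 with an unadjusted p under 0.05. Cd80 and Cd86, which encode costimulatory ligands, were at most 0.52 TPM in every library.

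Interferon gamma acts through its receptor and, among other factors, IRF1 on the inducible promoter of Ciita. Ifng itself was barely listed, at 0.38, 0 and 0 TPM in WT and at 0.13, 0.73 and 0 TPM in Mtg16-/-. Receptor transcripts were even, with Ifngr1 between 102 and 118 TPM and Ifngr2 between 132 and 195 TPM. Irf1 had 215, 140 and 189 TPM in WT and 158, 191 and 98.6 TPM in Mtg16-/-. It was lowest in the Mtg16-/- library that was lowest in class II genes, and its r with the member profile was 0.760. Socs1, an inhibitor that the pathway induces, had 3.85, 2.29 and 4.50 TPM in WT and 4.58, 6.87 and 2.61 TPM in Mtg16-/- (r = 0.832). None of the 10 tested genes of this group was called or had an unadjusted p under 0.05, and their median log2 fold change was -0.02. Their median r with the member profile was 0.505, and it was low for Ifngr1 (0.0439), Irf2 (0.257), Jak2 (0.340) and Ifngr2 (0.366).

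The interferon gamma-induced GTPases and chemokines had 13 tested members of 18, of which none was called and 1 had an unadjusted p under 0.05. Their median log2 fold change was -0.14, and their median r with the member profile was 0.720. Their summed TPM was 114, 64.5 and 106 in WT and 89.8, 132 and 43.3 in Mtg16-/-. As with the class II genes, Mtg16-/- replicate 2 held the highest and Mtg16-/- replicate 3 the lowest sum, but WT replicates 1 and 3 were above Mtg16-/- replicate 1. Not all members followed the class II profile. Cxcl10, a chemokine for T cells and the gene with an unadjusted p under 0.05, had 8.93, 4.78 and 1.00 TPM in WT and 1.04, 0.60 and 0.17 TPM in Mtg16-/- (limma adjusted p = 0.282), with r = 0.0658 to the profile. Cxcl11, a related chemokine, had r = 0.103, and Gbp9, a GTPase, had r = 0.410. Irgm2, a GTPase of the IRG family, had 11.45, 4.87 and 12.8 TPM in WT and 10.8, 17.9 and 2.37 TPM in Mtg16-/- (r = 0.919). These 4 genes were named after their values were seen.

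MHC class I presentation genes load peptides from the cytosol and were compared as the parallel pathway. None of the 18 was called, 4 had an unadjusted p under 0.05, and the median log2 fold change was -0.30. Nlrc5, the class I counterpart of Ciita, had 4.25, 1.94 and 4.91 TPM in WT and 4.97, 6.83 and 0.72 TPM in Mtg16-/-, with r = 0.952 to the class II profile. Tap1, a chain of the peptide transporter, had r = 0.965, with 40.8, 25.9 and 40.6 TPM in WT and 44.9, 55.4 and 17.1 TPM in Mtg16-/-. Psmb8, an immunoproteasome subunit, lay between 87.6 TPM in Mtg16-/- replicate 3 and 181 TPM in Mtg16-/- replicate 2 (r = 0.917). The heavy and light chain genes did not have this order. H2-K1, a class I heavy chain, was highest in WT replicate 1, with 978, 520 and 664 TPM in WT and 629, 537 and 289 TPM in Mtg16-/-. B2m, its light chain, had 2026, 1015 and 1231 TPM in WT and 1193, 1064 and 841 TPM in Mtg16-/-, with r = 0.366. H2-D1, another heavy chain, lay between 271 and 755 TPM, with its ends in the same libraries. Calr and Pdia3, 2 genes named after their values were seen, had groups without overlap, 2 of 18 in this list beside 21.0% of all tested genes. They encode chaperones of the endoplasmic reticulum and were lower in Mtg16-/-. Calr had 1087, 938 and 994 TPM in WT and 639, 561 and 575 TPM in Mtg16-/- (limma adjusted p = 0.165).

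**Figure D4:**
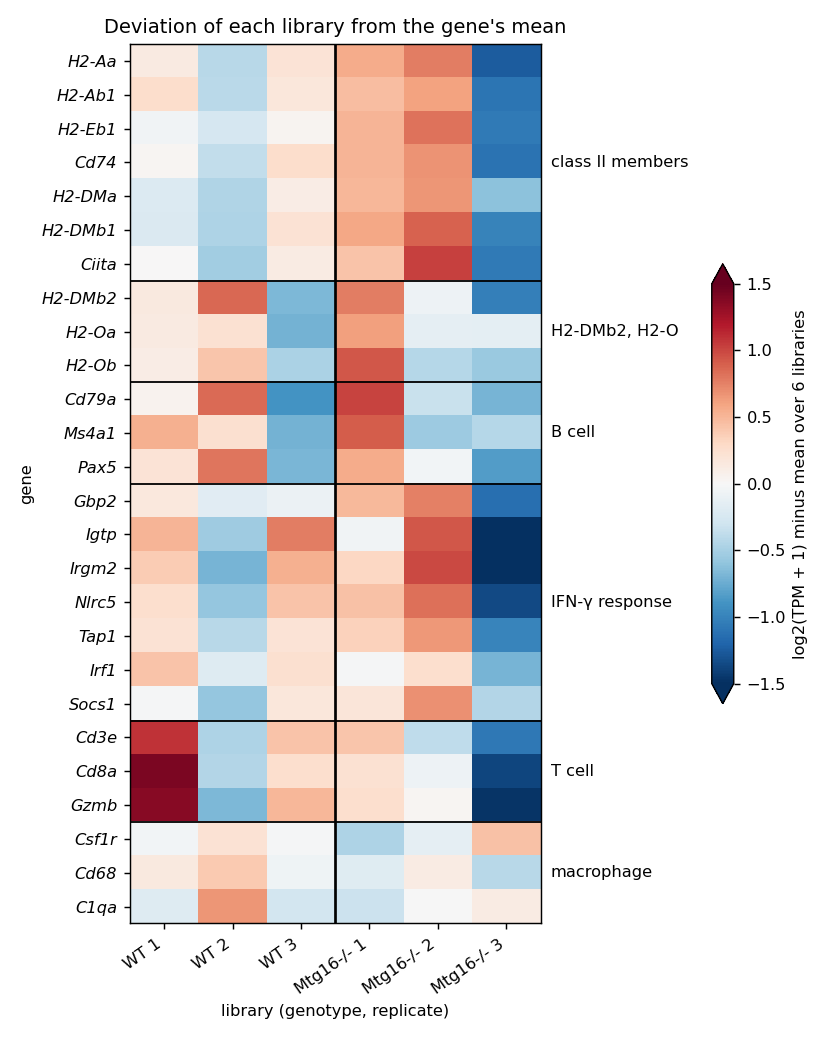
Deviation of log2(TPM + 1) in each library (columns) from the mean of the gene (rows) over 6 libraries, with red above and blue below the mean and colours ending at 1.5 in both directions. The 7 class II genes at the top share 1 pattern with much of the interferon gamma response block, whereas H2-DMb2 and the H2-O genes share that of the B cell genes. The genes of the interferon block were selected, and Nlrc5 and Tap1 in it are from the class I list. Cxcl10 (r = 0.0658 to the member profile), Cxcl11 (0.103), Ifngr1 (0.0439) and others that did not follow the profile are not shown.

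Markers of the leukocytes that make class II molecules are given beside these results, and their part in them was not tested beyond the values shown. The 10 B cell markers in the table had a summed TPM of 37.98, 52.88 and 16.95 in WT and of 58.31, 20.23 and 18.59 in Mtg16-/-, none of 9 tested was called, and none had an unadjusted p under 0.05. Mtg16-/- replicate 2, the highest library in 7 class II genes, was among the 3 lowest in B cell markers. Mtg16-/- replicate 1, the next highest in those 7 genes, had the highest B cell sum. Mtg16-/- replicate 3, the lowest in them, had a B cell sum of 18.59. The defining marker Ms4a1 was present at low values, between 0.91 and 4.86 TPM. The 18 dendritic cell and macrophage markers had sums from 34.8 to 48.7 in WT and from 34.1 to 36.9 in Mtg16-/-, with 10 of 18 under a mean of 1 TPM. The libraries highest and lowest in class II genes had sums of 35.4 and 36.9. The largest parts of these sums were Itgam (10.96 and 9.32 TPM) and Lyz2 (6.99 and 9.87 TPM). Single genes differed in opposite directions between these libraries. Itgax, an integrin of dendritic cells, had 1.66 and 1.07 TPM and Zbtb46, a dendritic cell factor, had 0.57 and 0 TPM, while Csf1r had 1.41 and 2.59 TPM and C1qb, a complement gene of macrophages, had 2.72 and 3.74 TPM. Of the 8 tested, none was called and 1 had an unadjusted p under 0.05. Flt3, a receptor of dendritic cells, was at most 0.30 TPM, Itgax lay between 1.07 and 4.84 TPM and Csf1r, the macrophage growth factor receptor, between 0.93 and 2.59 TPM. The macrophage genes Cd68 and C1qa lay between 2.52 and 5.18 TPM and between 2.43 and 5.80 TPM.

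T cell and intraepithelial lymphocyte markers, of which 12 were tested, had sums of 576, 170 and 325 in WT and of 261, 206 and 86.0 in Mtg16-/-. None was called, 4 had an unadjusted p under 0.05, and their median log2 fold change was -0.81. Cd3e, a chain of the T cell receptor complex, lay between 6.20 and 31.0 TPM. Mtg16-/- replicate 3 was the lowest library in these markers and in class II genes. WT replicate 1, the highest in T cell markers, was below Mtg16-/- replicates 1 and 2 in H2-Aa and H2-Ab1. Whether T cells had a part in the class II levels was not tested. The ratio of H2-Ab1 to Ptprc ranged from 19.9 in WT replicate 1 to 64.3 in Mtg16-/- replicate 2. Pan-leukocyte markers (6 tested, none called, none with an unadjusted p under 0.05) had sums between 74.0 and 130 in WT and between 56.5 and 124 in Mtg16-/-. Plasma cell markers (5 tested, none called, 1 with an unadjusted p under 0.05) had sums between 12.7 and 28.3 in WT and between 21.1 and 48.6 in Mtg16-/-. Stromal and endothelial markers (4 tested of 11, none called, none with an unadjusted p under 0.05) had sums between 14.3 and 22.3 in all libraries.

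The 7 general epithelial markers (none called, 1 with an unadjusted p under 0.05) had a summed TPM between 8985 and 10268 in all libraries, most of it from the keratin genes Krt8 and Krt19. In the same list Vil1, a brush border gene, ranged from 543 to 1857 TPM. Groups without overlap were seen in 2 of the 7, Cdx2 and Krt18, beside 21.0% of all tested genes. Cdx2, an intestinal transcription factor, had 137, 168 and 176 TPM in WT and 224, 216 and 214 TPM in Mtg16-/- (limma adjusted p = 0.265). The 13 enterocyte markers had sums of 41357, 13977 and 17420 in WT and of 13599, 7513 and 6910 in Mtg16-/-, and the 10 stem cell markers had sums of 945, 1475 and 1620 in WT and of 1742, 2317 and 1985 in Mtg16-/-. Mtg16-/- replicates 2 and 3, at opposite ends of class II expression, had similar sums in both lists but differed in single genes. Lgr5, the crypt base stem cell receptor, had 20.2 TPM in the former and 9.94 TPM in the latter, and Olfm4, another stem cell marker, had 1611 and 1448 TPM. Fabp1, an enterocyte fatty acid binding protein, had 411 and 660 TPM in the same 2 libraries. Tnfrsf19, a stem cell marker, had 7.79 and 3.41 TPM there, and Apob, the enterocyte apolipoprotein of chylomicrons, had 240 and 102 TPM. None of the enterocyte or stem cell markers was called by limma, while 8 and 6 of them had an unadjusted p under 0.05. Among all tested genes 14.6% had such a p. Groups did not overlap in 5 of the 13 enterocyte and 6 of the 10 stem cell markers, beside 21.0% of all tested genes. By log2 fold change all 13 enterocyte markers were lower and all 10 stem cell markers higher in Mtg16-/-.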

How the data were processed

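Crypt RNA was depleted of ribosomal RNA before library preparation. Per the labels, the authors used cutadapt 1.9.1, STAR 2.5.2a and RSEM 1.3.0 with mm10 and also list DESeq2 1.12.3, with no role or order given. They deposited 1 table of TPM values rounded to 2 decimals, with 1 column per library. Depth and counting error are therefore unknown, and no count test was run. Libraries were grouped by their titles.

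Here TPM was transformed as log2(TPM + 1). Genes whose TPM averaged 1 or more were tested, Mtg16-/- against WT without covariates, with limma 3.58.1 (eBayes with an intensity trend, R 4.3.3) and an adjusted p under 0.1. The procedure was tested on simulated data with independent noise and planted changes larger than the difference of any member. That test does not show whether changes as small as those of the members would be found. Each library is a separate mouse (biological triplicates by the labels). The 8 members and all lists were chosen from general knowledge with earlier results of these data known, and no list is independent evidence. Of 186 other listed genes in the table, values are given by list, and by name for the best known genes of each list, except for some that are not reported here. Other list genes named in the text (such as Slc10a2, Fabp6, Zbtb46, C1qb, Vil1, Cdx2, Tnfrsf19, Apob, Ctsl, Irf2 and Jak2) were chosen after their values were seen. Likeness was ranked by Pearson's r with the centred mean of the members, and the 10 highest are named. Symbols were matched to RefSeq GRCm38.p6 and GENCODE vM21. Alternatives were other pseudocounts, filters, scalings, moderation and weights, a replicate block, each library left out and an adjusted p under 0.05.

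The lists of Paneth cell, proximal small intestine, ileum and colon genes (7, 5, 5 and 4 tested) held no called gene, with median log2 fold changes of 0.80, -0.42, 0.34 and -0.13 and 4, 3, 1 and 2 genes at an unadjusted p under 0.05. Groups did not overlap in 3, 2, 1 and 2 of them, beside 21.0% of all tested genes.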

Additional observations from a re-analysis of the deposited data

How the results depend on the processing

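None of the 8 class II genes was called by limma under any of the 16 alternatives, and the lowest adjusted p of a member was 0.300 (H2-DMa). Log2 fold changes turned sign under quantile normalization for H2-Ab1 (0.070) and Cd74 (-0.0058), and under array weights for H2-Ab1 (0.28) and H2-DMb2 (0.25). With each library left out in turn, they ranged from -0.32 to 0.69 for H2-Aa, from -0.33 to 0.52 for H2-Ab1, from -0.19 to 0.75 for H2-Eb1, from -0.058 to 0.88 for H2-DMb1, from -0.66 to 0.23 for H2-DMb2, from -0.27 to 0.62 for Cd74 and from -0.19 to 0.86 for Ciita, and H2-DMa stayed between 0.12 and 0.76. The median over members ranged from -0.21 to 0.72. The number of all genes called depended strongly on the setting. With all 6 libraries 2 genes were called higher and 2 lower. There were 0 and 0 without a filter, with median-ratio rescaling, without an intensity trend and at an adjusted p under 0.05. The counts were 5 and 10 at a mean TPM of at least 5, 1 and 0 with quantile normalization, 6 and 14 with robust moderation and 421 and 434 with array weights. Leaving out a library gave between 0 and 12 higher and between 0 and 28 lower, the most without WT replicate 1. Of the other listed genes 0 were called, but 18 were with array weights and 37 with the replicate block. The cause was not tested.

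The replicate block gave 385 higher and 816 lower genes. Same-numbered libraries deviated together with r = 0.429, 0.0753 and 0.237 across genes, and 5 of 6 libraries correlated best with their own number, a hint from the data only, since the numbers are not described as a pairing. Because both groups hold the same replicate numbers, the block cannot change a log2 fold change, for example 0.05 for H2-Aa. It changes the error only, and with it H2-DMa had the smallest adjusted p of the members (limma, 0.522). Because depth is unknown, no limit of detection can be given for Ciita, H2-DMb2 or the H2-O genes, and 3 mice a group leave wide intervals.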

Other observations

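The order of the mice differed between the summed TPM of the class II genes and that of the class I genes. The class I sum ordered all 6 libraries as the T cell marker sum did. The enterocyte marker sum had the same highest library (WT replicate 1, 41357) and the same lowest (Mtg16-/- replicate 3, 6910). A link with either was not tested. Single class I genes did follow the class II profile, such as Tap1 (r = 0.965) and Nlrc5 (r = 0.952). The median r of the class I list was 0.609, and B2m, with the highest TPM of the list, had r = 0.366. WT replicate 1 had the highest summed TPM of class I presentation genes (7908, beside 3907 to 6175 in the other libraries) and of T cell markers (576, beside 86.0 to 325), while its summed TPM of the 8 class II genes was 1852, within the range of the other WT libraries (1356 and 2048). Mtg16-/- replicate 3 was the lowest library in all 3 sums, with 810 TPM for the class II genes, whereas Mtg16-/- replicate 2 had 2850 TPM for class II genes but a class I sum of 5079, close to the 5074 of WT replicate 2. The likeness of H2-DMb2 to B cell markers (median r = 0.869) and to ileum genes (median r = 0.768) was noticed in these libraries and has not been tested in others.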
